A study of Mus musculus with 12 samples.

Results

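The 10 genes described here encode proteins of the heart sarcomere: Actc1, Tnnt2, Tnnc1, Tnni1, Myl3, Myl4, Myl7, Myh6, Myh7 and Ttn. They were taken by symbol from a table of 54537 mouse genes, and all 10 were found, each with the same coordinates as in GENCODE M21. All 10 also passed the filter on low values, at least 1 FPKM in at least 2 of the 12 libraries, which 16289 genes passed. Ttn passed it only through the 1343KO libraries of day 0, so tests of Ttn against that group are not independent of the filter. FPKM is a level per gene, counted in fragments and scaled to transcript length and library depth. It does not by itself make libraries alike, since its sum ran from 444355 (WT day 8 replicate 1) to 517962 (1343KO day 8 replicate 1). Comparison between genes rests on the transcript length used, which is not given.

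The libraries came from mouse embryonic stem cells with the genotype WT, and from a second line whose genotype label reads WT+1343KO-a14; it is written 1343KO below. Day 0 cells grew in serum with LIF, a cytokine that holds stem cells undifferentiated. Days 8 and 16 were embryoid bodies, aggregates floating in serum medium without LIF, in which many lineages arise side by side. The 6 groups of line and day had 2 libraries each, of poly(A) RNA. The study knocked out selected long noncoding RNAs in stem cells and its title links SNORA73 with leaving pluripotency. What the number in this label refers to, and what the leading WT+ means, is not said. The genotype is represented by that line alone. The labels do not tell whether replicates came from separate cultures. The p-values therefore cover the spread between libraries alone, and that spread may be technical.

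The sarcomere is the repeating contractile unit of striated muscle. In its thin filament, cardiac actin (Actc1) carries the troponin complex, made of a tropomyosin-binding subunit (Tnnt2), a calcium sensor (Tnnc1) and an inhibitory subunit (Tnni1, the slow skeletal form, which the embryonic heart uses before it switches to Tnni3). In its thick filament, the myosin motors Myh6 (alpha) and Myh7 (beta) bind essential light chains (Myl3 of the ventricle, Myl4 of the atrium and embryonic muscle) and regulatory light chains (Myl7 of the atrium, with Myl2 as its ventricular counterpart). Ttn encodes titin, the giant spring that spans from Z-disc to the middle of the sarcomere. Several of these genes are also used outside the heart: Tnnc1, Tnni1, Myl3 and Myh7 in slow skeletal muscle, and Actc1 and Myl4 in embryonic skeletal muscle.

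The start-site sequences are shown because muscle genes are known to share short elements there, and because the members differed in how they moved. Promoters of all 10 members, 250 bases up to each start site, were found in RefSeq for GRCm38.p6, and 8 motifs were searched on both strands. Tnnt2, Tnni1 and Myh7 had 2 start sites each. A member counted if any of its sites matched, while the shares of all promoters are per promoter, so the counts and shares are not fully alike. The CArG box, the binding element of serum response factor, was present in 3 of 10 members and in 1.47% of 32851 promoters of the same length. The MCAT letters CATTCC were present in 6 of 10 members (Tnnt2, Tnnc1, Myl3, Myl7, Myh6 and Myh7) and in 12.6% of all promoters. In Tnnt2 and Myh7 they were at 1 of the 2 start sites. In the 4 lines below, read 5′ to 3′ on the gene's strand, capitals mark matches to the CArG box, to CATTCC and to the GATA letters AGATAA, on either strand.
Actc1, chr2:114052876-114053125, minus strand: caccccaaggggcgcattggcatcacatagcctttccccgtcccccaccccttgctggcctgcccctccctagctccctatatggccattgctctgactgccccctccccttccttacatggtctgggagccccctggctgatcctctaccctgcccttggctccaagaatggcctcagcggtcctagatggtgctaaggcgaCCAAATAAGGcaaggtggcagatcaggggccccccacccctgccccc
Myl7, chr11:5898783-5899032, minus strand: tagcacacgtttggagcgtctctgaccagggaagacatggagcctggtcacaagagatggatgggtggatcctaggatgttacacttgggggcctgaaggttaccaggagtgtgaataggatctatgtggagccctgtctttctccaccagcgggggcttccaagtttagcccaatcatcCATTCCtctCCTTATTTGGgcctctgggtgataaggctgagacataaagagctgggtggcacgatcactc
Myl3, chr9:110763428-110763677, plus strand: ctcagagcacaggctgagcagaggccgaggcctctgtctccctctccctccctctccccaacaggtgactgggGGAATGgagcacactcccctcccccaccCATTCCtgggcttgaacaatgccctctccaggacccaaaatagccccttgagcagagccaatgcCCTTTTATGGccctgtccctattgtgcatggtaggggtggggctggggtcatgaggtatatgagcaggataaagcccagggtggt
Tnnt2, chr1:135836084-135836333, plus strand: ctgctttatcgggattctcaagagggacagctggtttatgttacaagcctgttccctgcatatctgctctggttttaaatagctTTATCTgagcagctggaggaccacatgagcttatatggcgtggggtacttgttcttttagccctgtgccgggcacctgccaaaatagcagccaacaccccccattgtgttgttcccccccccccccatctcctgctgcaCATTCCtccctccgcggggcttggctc
In Actc1 the CArG match began 47 bases before the start site, in Myl7 61 bases and in Myl3 85 bases. Tnnt2 held the AGATAA letters of GATA factors, found in 9.99% of all promoters and in no other member. The NKX2-5 letters AAGTGG were in Myl4, Myh6 and Myh7 (14.1% of all promoters), and a MEF2 match was in Ttn alone (2.92%). No member held TATAAA (12.4%) or the T-box letters GGTGTGA (3.33%), and E-boxes (CANNTG) were in 8 of 10 members and in 66.2% of all promoters. The MEF2 and CArG elements can overlap TATAAA and each other, since all are rich in A and T. These matches are letters only; binding was not measured.

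Across the 12 libraries, depth recovered from the smallest FPKM steps was about 4960000 to 8180000 fragments, and 12909 to 14069 genes reached 1 FPKM. In the shallowest library 1 fragment was worth about 0.158 FPKM for Actc1, 0.386 for Tnnc1, 0.516 for Myl7 and 0.0334 for Myh7. Snhg3, the noncoding host gene of SNORA73 in mouse, was listed at 8.31 to 61.1 FPKM in the 6 WT libraries and at 0 to 1.57 in the 6 libraries of the 1343KO line. No label calls these samples heart, and the hormone gene Nppa, a mark of working heart muscle, did not exceed 0.492 FPKM in any library. The skeletal regulators Myod1 and Myog did not exceed 0.254. The heart factor Nkx2-5 was highest in WT at day 8, at 2.89 and 3.21.

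The first question was how the lines differed in these genes on each day. As stem cells, none of the 10 genes passed between the lines. At day 8, 6 genes were lower in the 1343KO line and none was higher. At day 16 the set was divided: Actc1, Myl4 and Myl7 were higher in the 1343KO line, while Tnnt2, Tnnc1 and Tnni1 were lower. Differences are in units of log2(FPKM + 1), where low genes appear to change less than they do, and a gene passed at a limma adjusted p under 0.05 over all 16289 genes.

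The counts stand beside the following background. At day 0, 0 of 10 members passed, and 3.71% of all genes did; Tnnc1 and Tnni1 (lower) had an unadjusted limma p under 0.05, as did Ttn (higher), whose 1343KO libraries of this day are those that carried it past the filter. At day 8 the 6 of 10 lower members compare with 19.6% of all genes lower and 23.3% higher, and the members' median difference was -1.18 against 0.06 for all genes. No member was higher at day 8 at an unadjusted limma p under 0.05 either. No share of all genes is given at an unadjusted p, so counts at that threshold have no background here. At day 16, 3 of 10 were higher, where 28.5% of all genes were, and 3 of 10 were lower, where 24.1% were. The day 16 shares lie close to those of all genes, and the members' median there was 0.32 against 0.07.

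**Figure D1:**
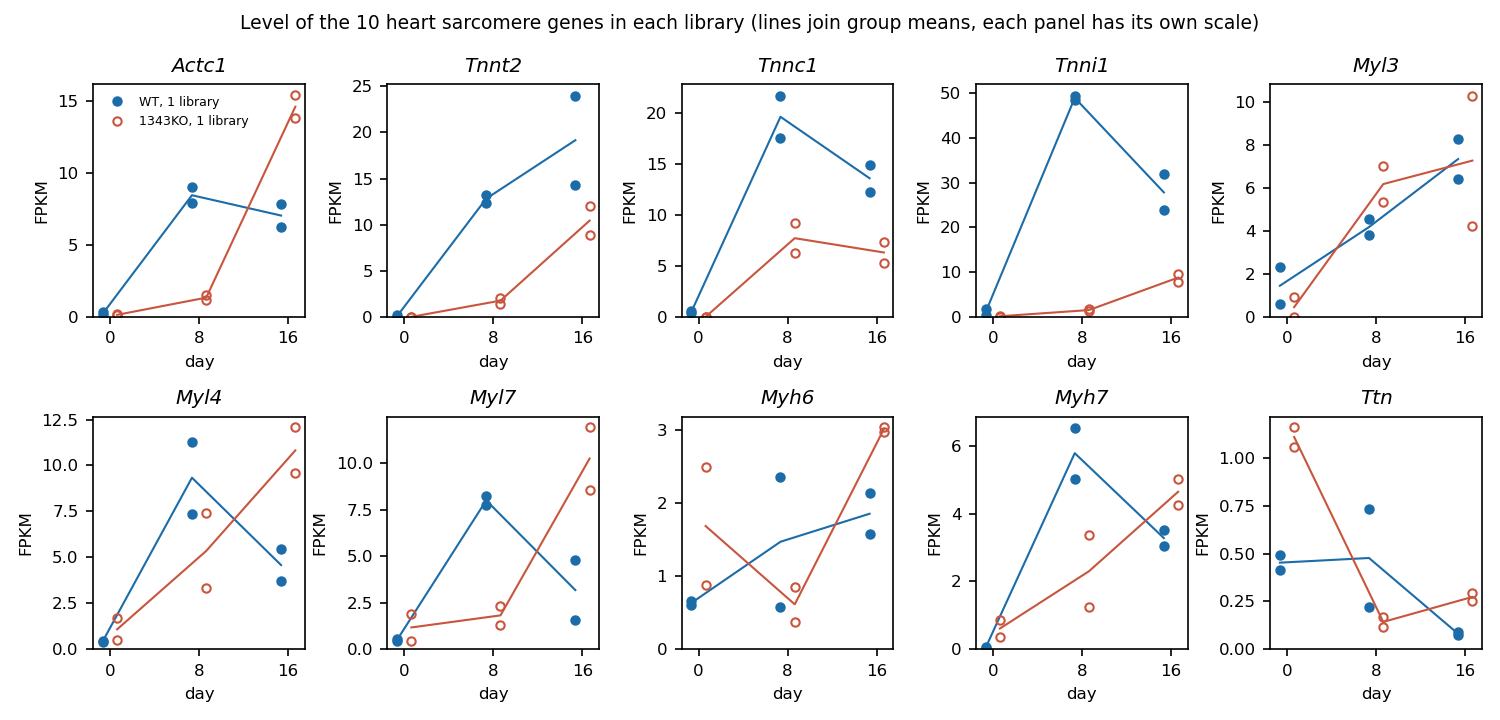
Level of each gene in FPKM (vertical axis, own scale per panel) against day (horizontal axis), with 1 point per library, filled for WT and open for the 1343KO line, and lines joining the means of 2 libraries. Tnni1 stands at 48.4 and 49.5 in WT at day 8 and below 2 in the 1343KO line, while Actc1 is highest in the 1343KO line at day 16.

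Among thin filament genes, Actc1 (chr2:114047282-114053548, minus strand) was listed at 0.324 and 0.139 FPKM in WT at day 0, then at 7.88 and 9.02 at day 8, then at 6.23 and 7.85 at day 16. The 1343KO libraries, in the same order, had 0.116 and 0.162, then 1.504 and 1.17, then 13.8 and 15.4. The 1343KO line was thus below both WT libraries at day 8 and above every WT library of any day at day 16. The mean was 6.33-fold lower at day 8 (log2 difference -2.02 ± 0.18 (SE), limma adjusted p = 2.94e-05). It was 2.07-fold higher at day 16 (0.96 ± 0.18, limma adjusted p = 0.00175). In these bulk libraries, fewer cells of a type and less RNA per cell cannot be told apart.

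Tnnt2 (chr1:135836354-135852260, plus strand) was listed at 0.164 and 0 in WT at day 0, then 12.4 and 13.2, then 14.3 and 24.0. The 1343KO line showed 0 in both day 0 libraries, then 1.42 and 2.09, then 11.98 and 8.89. At both later days the lines did not overlap. It was 7.30-fold lower in the 1343KO line at day 8 (-2.34 ± 0.26, limma adjusted p = 8.86e-05) and 1.84-fold lower at day 16 (-0.79 ± 0.26, 0.0269). The day 16 call ended without WT replicate 2 (limma adjusted p = 0.216) or 1343KO replicate 2 (0.158) of that day, with a pseudocount of 0.1 (0.17), with no filter (0.055) and on the 4 libraries of day 16 alone (0.0591).

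Tnnc1 (chr14:31208312-31211729, plus strand) overlaps the opposite-strand gene Nisch on the annotation, and the extent of the overlap was not measured. No source states whether strand was used, so how reads in shared bases were assigned is not known. It was at 0.608 and 0.390 in WT at day 0, then 17.6 and 21.8, then 15.0 and 12.3. Both day 0 libraries of the 1343KO line listed it at 0, and later ones at 6.29 and 9.18, then 5.27 and 7.38. The 1343KO libraries of days 8 and 16 lay below all WT libraries of those days and overlapped each other. The difference was -1.26 ± 0.22 at day 8 (2.54-fold, limma adjusted p = 0.00166) and -1.01 ± 0.22 at day 16 (2.15-fold, 0.00426). At day 0, with a pseudocount of 0.1, Tnnc1 passed as lower in the 1343KO line (limma adjusted p = 0.00286), at levels worth a few fragments.

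Tnni1 (chr1:135779434-135810989, plus strand) was the member of highest level and of largest difference. It was at 0.350 and 1.75 in WT at day 0, then 48.4 and 49.5, then 23.8 and 31.8. The 1343KO line had 0 and 0.256, then 1.31 and 1.72, then 9.67 and 7.87. Every later WT library was above every library of the 1343KO line. The mean was 32.3-fold lower at day 8 (-4.32 ± 0.31, limma adjusted p = 6.58e-06) and 3.17-fold lower at day 16 (-1.55 ± 0.31, 0.00214). With a pseudocount of 0.1 the day 16 call ended (limma adjusted p = 0.0703). At day 0, Tnni1 passed as lower without WT replicate 1 (0.0451).

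Of the light chains, Myl7 (chr11:5896637-5898782, minus strand) moved in the same directions as Actc1. It was at 0.435 and 0.558 in WT at day 0, then 8.23 and 7.75, then 1.57 and 4.77. The other line, 1343KO, had 0.452 and 1.87, then 2.32 and 1.30, then 8.57 and 11.9. The day 16 libraries of the 1343KO line were above all WT libraries of any day. The difference was -1.70 ± 0.42 at day 8 (4.41-fold lower, limma adjusted p = 0.00936) and 1.53 ± 0.42 at day 16 (3.23-fold higher, 0.0123). The day 8 call ended without 1343KO day 8 replicate 2 (limma adjusted p = 0.064), and the day 16 call without WT day 16 replicate 1 (0.0981) or 1343KO day 16 replicate 2 (0.0755).

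Myl4 (chr11:104550663-104595753, plus strand) was at 0.467 and 0.408 in WT at day 0, then 11.3 and 7.38, then 3.72 and 5.43. Its 1343KO values were 1.67 and 0.481, then 3.30 and 7.39, then 12.1 and 9.57. The lines overlapped at day 8, where the difference did not pass (-0.76 ± 0.38, limma adjusted p = 0.139). It passed as lower without 1343KO day 8 replicate 2 (0.0406). At day 16 Myl4 was 2.36-fold higher in the 1343KO line (1.09 ± 0.38, limma adjusted p = 0.0348). That call was lost when any of the 4 libraries compared was left out (0.171 and 0.0506 without WT replicate 1 or 2, 0.149 and 0.0655 without 1343KO replicate 1 or 2), with a pseudocount of 0.1 (0.0842), with no filter (0.0798), and with median-of-ratios (0.0587) or TPM scaling (0.0559). Pseudogenes lie opposite Myl4 on the annotation, and the split of reads between them is not known.

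Myl3 (chr9:110741861-110769798, plus strand; Pth1r lies opposite) was the light chain for which no difference between the lines passed on any day. WT libraries had 0.586 and 2.31, then 4.56 and 3.81, then 6.44 and 8.27. Those of the 1343KO line had 0.907 and 0, then 5.36 and 7.02, then 4.25 and 10.3. At day 16 the 1343KO libraries lay on either side of WT. The differences were -0.73 ± 0.46, 0.47 ± 0.46 and -0.11 ± 0.46 (limma adjusted p of 0.48, 0.45 and 0.869). The 95% interval at day 16 ran from -1.14 to 0.93, so differences of either sign within that range were not excluded.

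The heavy chains lie side by side on chromosome 14 and resemble each other in sequence, so their levels may be uncertain one by one. Myh7 (chr14:54970684-54994626, minus strand; the antisense gene Mhrt overlaps it) was at 0.0539 and 0.0278 in WT at day 0, then 5.05 and 6.55, then 3.05 and 3.52. The 1343KO line had 0.358 and 0.858, then 3.36 and 1.24, then 4.27 and 5.03. The lines did not overlap on any day, with the 1343KO line higher at days 0 and 16 and lower at day 8, but only the day 8 difference passed (-1.11 ± 0.31, 2.52-fold, limma adjusted p = 0.0163). That call ended without WT day 8 replicate 2 (0.0972) or 1343KO day 8 replicate 2 (0.106), and on the 4 libraries of day 8 alone (0.053). The day 0 difference of Myh7 (0.61 ± 0.31, limma adjusted p = 0.362) passed with a pseudocount of 0.1 (0.0449).

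Myh6 (chr14:54941921-54966927, minus strand) stayed between 0.378 and 3.05 FPKM in all 12 libraries. It was at 0.607 and 0.658 in WT at day 0, then 2.36 and 0.581, then 2.13 and 1.57. The 1343KO libraries had 0.874 and 2.497, then 0.848 and 0.378, then 2.98 and 3.05. No line difference of Myh6 passed (0.65, -0.53 and 0.50, each ± 0.39, with limma adjusted p of 0.454, 0.304 and 0.309).

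Ttn (chr2:76703980-76982547, minus strand) was low throughout, and in the 1343KO line it was highest in stem cells. WT had 0.494 and 0.412, then 0.218 and 0.736, then 0.0719 and 0.0885. The 1343KO line had 1.06 and 1.16, then 0.115 and 0.170, then 0.254 and 0.292. The 1343KO libraries were above WT at day 0, below at day 8 and above at day 16 without overlap, yet none of the differences passed (0.54, -0.35 and 0.24, each ± 0.21, with limma adjusted p of 0.219, 0.211 and 0.37). GENCODE lists 25 Ttn transcripts, of 271 to 106824 nt, and which of them the FPKM stand for is not known.

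**Figure D2:**
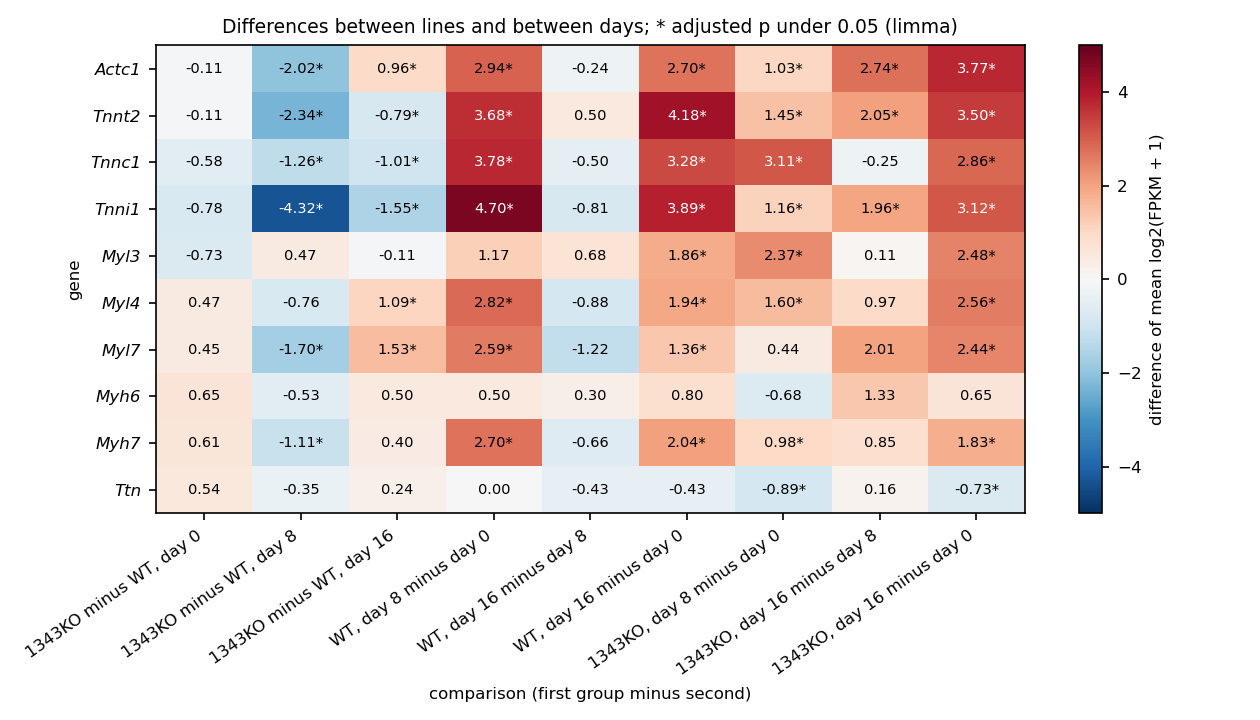
Difference of mean log2(FPKM + 1) for each of the 10 genes (rows) in 9 comparisons (columns), colored from blue (lower in the first group) to red (higher), with the value printed and a star where the limma adjusted p is under 0.05. The column of the lines at day 8 is blue with a star for Actc1, Tnnt2, Tnnc1, Tnni1, Myl7 and Myh7, and blue without a star for Myl4, Myh6 and Ttn. The column of the 1343KO line from day 8 to 16 has stars for Actc1 (2.74), Tnnt2 (2.05) and Tnni1 (1.96) alone.

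The second question was when each line gained these genes. In WT the rises came by day 8: 7 of 10 members rose from day 0 (26.8% of all genes did). Between day 8 and day 16 none passed with limma in either direction (27.6% of all genes did). At an unadjusted limma p under 0.05, 3 were lower (Tnni1, Myl4 and Myl7), with no share of all genes given at that threshold. The members that rose by day 8 were Tnni1 (4.70), Tnnc1 (3.78), Tnnt2 (3.68), Actc1 (2.94), Myl4 (2.82), Myh7 (2.70) and Myl7 (2.59), with limma adjusted p from 1.14e-06 to 0.000663. These 7 calls held under every alternative that tested them. Myl7 and Myh7 were not tested at a mean of at least 5 FPKM. Myl3 missed the threshold (1.17 ± 0.46, limma adjusted p = 0.0574), and passed with TPM scaling (0.0453) and without WT day 0 replicate 2 (0.024), or without any of the 1343KO libraries of day 0 (0.0475 and 0.0472) or day 16 (0.0384 and 0.0387). Myh6 (0.50) and Ttn (0.00) did not pass.

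From day 8 to day 16 the WT differences ran from -1.22 for Myl7 (limma adjusted p = 0.0577) to 0.68 for Myl3 (0.32). Tnni1 stood at -0.81 ± 0.31 (limma adjusted p = 0.0826), a ratio of 1.76 between the days without overlap of the libraries. These calls can turn on single libraries, also on ones outside the comparison. Tnni1 passed as lower without WT day 0 replicate 1 or 2, although its difference of -0.81 does not use those libraries. They enter the test through the pooled spread and the genes tested. Myl7 passed as lower without WT day 16 replicate 2 (0.0198), and without each of the 1343KO day 0 libraries (0.0403 and 0.0407). Against day 0, 8 of 10 members were higher at day 16 in WT (32.7% of all genes were), from Tnnt2 (4.18) and Tnni1 (3.89) to Myl3 (1.86 ± 0.46) and Myl7 (1.36 ± 0.42). The Myl3 call ended without WT day 0 replicate 1 (limma adjusted p = 0.0507), and that of Myl7 without WT day 0 replicate 1 (0.0711) or 2 (0.0535) or WT day 16 replicate 2 (0.147). Ttn was not among those that passed (-0.43), but passed as lower with a pseudocount of 0.1 (0.037).

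In the 1343KO line, 7 of 10 members also rose by day 8 (15.0% of all genes did). The largest rise was that of Tnnc1 (3.11 ± 0.22, limma adjusted p = 2.32e-05), followed by Myl3 (2.37), Myl4 (1.60), Tnnt2 (1.45), Tnni1 (1.16), Actc1 (1.03) and Myh7 (0.98). Ttn stood at -0.89 ± 0.21 (limma adjusted p = 0.0144, where 8.51% of all genes fell), a fall that the filter favoured, since day 0 of this line is the group that carried Ttn past it. With no filter its adjusted p was 0.00881, and without either of those libraries Ttn was not tested. Of these, the calls of Tnnc1, Myl3, Tnnt2 and Actc1 held without any 1 library. That of Tnni1 ended without any 1 of the 1343KO libraries of day 0 (0.115 and 0.0517) or day 8 (0.0588 and 0.118), and with no filter (0.0582). That of Myl4 ended without 1343KO day 0 replicate 2 (0.0968) or day 8 replicate 2 (0.0997), and that of Ttn without 1343KO day 8 replicate 1 (0.0622) or 2 (0.0514). The Myh7 call (limma adjusted p = 0.0472) ended without any 1 of the 12 libraries other than 1343KO day 8 replicate 2 (0.0613 to 0.252), with a replicate block (0.0648), with no filter (0.103), and with median-of-ratios (0.0534) or TPM scaling (0.0564).

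From day 8 to day 16 in the 1343KO line, few genes moved: 131 of 16289 passed (0.804%), 0.602% higher and 0.203% lower. Of the 10 members 3 were among the higher, all of the thin filament. Actc1 rose 10.9-fold (2.74 ± 0.18, limma adjusted p = 0.000367), Tnnt2 5.94-fold (2.05 ± 0.26, 0.00977) and Tnni1 5.79-fold (1.96 ± 0.31, 0.0233). The Actc1 call held under every alternative run, with 0.0103 as its highest adjusted p. The Tnnt2 call ended without 1343KO day 8 replicate 1 (0.0659) or day 16 replicate 1 (0.0871), and with a pseudocount of 0.1 (0.0645). That of Tnni1 ended without any 1 of the 4 libraries compared (0.116 and 0.135 at day 8, 0.155 and 0.108 at day 16) or WT day 8 replicate 1 (0.0523) or 2 (0.0527), with a pseudocount of 0.1 (0.189) and with no filter (0.0596).

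The other members did not pass in that interval, though some had large ratios. Myl7 was 5.65-fold higher at day 16 than at day 8 with no overlap (2.01 ± 0.42, limma adjusted p = 0.0732), and passed without WT day 16 replicate 1 (0.0481) or 2 (0.0492). Myh6 was 4.92-fold higher (1.33 ± 0.39, limma adjusted p = 0.183) from levels under 1 FPKM. Tnnc1, the remaining thin filament gene, had a difference of -0.25 ± 0.22 (limma adjusted p = 0.714). From day 0 to day 16 as a whole, 8 of 10 members were higher in the 1343KO line (18.2% of all genes). The rises ran from 1.83 for Myh7 to 3.77 for Actc1, against a median of 0.11 for all genes that became 0.00 with median-of-ratios scaling. The difference of Ttn (-0.73 ± 0.21, limma adjusted p = 0.0293, where 8.60% of all genes fell; 0.0176 with no filter) is against the same day 0 group, and did not pass when any 1 of the day 16 libraries was left out, 1343KO (0.103 and 0.0899) or WT (0.057 and 0.0567), or with a pseudocount of 0.1 (0.061).

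The lines' changes over time were then tested against each other. From day 0 to day 8 the change was smaller or more negative in the 1343KO line for 5 of the 9 members other than Ttn (12.7% of all genes), namely Actc1, Tnnt2, Tnni1, Myl7 and Myh7. Ttn also passed (-0.89, limma adjusted p = 0.0499; 0.0307 with no filter), but its baseline in the 1343KO line is the group that carried it past the filter. From day 8 to day 16 it was larger in the 1343KO line for 6 of 10 (8.50% of all genes), namely Actc1, Tnnt2, Tnni1, Myl4, Myl7 and Myh7. Both tests use the same day 8 libraries with opposite sign, so the shared members are not independent results. Over the whole interval only Actc1 differed, with a larger gain in the 1343KO line (1.07, limma adjusted p = 0.00957, where 21.7% of all genes had a larger change). Tnnc1 did not pass in any of the 3 tests (-0.68, 0.25 and -0.43, with limma adjusted p of 0.149 for the first and 0.323 for the last), nor did Myl3 or Myh6. With a pseudocount of 0.1 the last Tnnc1 difference had the opposite sign and passed, as described below.

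The composition of the set changed with line and day. Summed over the 10 members, WT libraries held 118 and 120 FPKM at day 8 and 76.3 and 99.6 at day 16. The 1343KO line held 25.8 and 31.7 at day 8 and 73.1 and 79.7 at day 16, so at day 16 the summed level of the lines overlapped. Tnni1 alone made up 41.1% of the sum in each WT library at day 8 and 31.2% and 31.9% at day 16. Its share was 5.1% and 5.4%, then 13.2% and 9.9%, in the 1343KO line. Tnnc1 led the 1343KO line at day 8 (24.3% and 29.0%), and Actc1 led it at day 16 (18.9% and 19.3%). Actc1 never exceeded 8.2% in a later WT library. By filament, the 4 thin filament genes summed to 59.3 and 75.9 in WT at day 16 and to 40.7 and 39.5 in the 1343KO line, while the 3 light chains summed to 11.7 and 18.5 in WT and to 24.9 and 31.8.

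**Figure D3:**
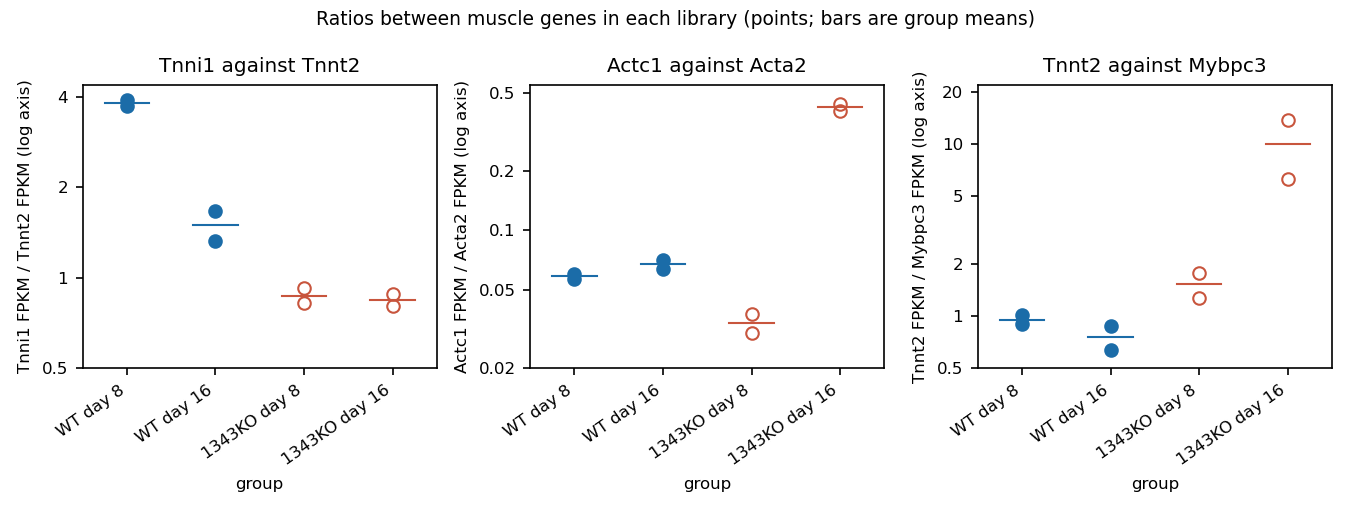
Ratio of 2 genes' FPKM within each library (vertical axis, log scale) by group, with 1 point per library, filled for WT and open for the 1343KO line, and a bar at the mean of 2. Tnni1 against Tnnt2 is above 1 in the 4 WT libraries and below 1 in the 4 of the 1343KO line. Tnni3, another inhibitory subunit, is not counted with Tnni1. Actc1 against Acta2 is highest in the 1343KO line at day 16 (0.406 and 0.436).

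Ratios within a library do not depend on its scaling. Troponin subunits work in equal number in the complex, and Tnni1 against Tnnt2 was 3.91 and 3.73 in WT at day 8, then 1.66 and 1.33. The 1343KO line had ratios of 0.922 and 0.824, then 0.807 and 0.886, below every WT library of days 8 and 16. Tnni3, another inhibitory subunit, is left out of this ratio. It was at 3.25 and 0.705 FPKM in the 1343KO line at day 8, then at 1.03 and 3.92 at day 16. In 1343KO day 8 replicate 1 it exceeded Tnni1 (1.31), so the ratio describes Tnni1 alone and not all inhibitory subunits. Tnnc1 against Tnnt2 was 4.43 and 4.38 in the 1343KO line at day 8, and between 0.44 and 1.64 in the other 6 libraries of days 8 and 16. Actc1 against Acta2, the smooth muscle actin that the early heart also uses, was between 0.0303 and 0.071 in WT at days 8 and 16 and in the 1343KO line at day 8. It was 0.406 and 0.436 in the 1343KO line at day 16. Acta2 itself did not pass between days 8 and 16 in that line (39.7 and 38.4, then 34.1 and 35.3; limma adjusted p = 0.566).

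Isoform pairs also differed. The beta share, Myh7 out of Myh7 and Myh6, was 8.16% and 4.06% in WT at day 0, then 68.1% and 91.9%, then 58.8% and 69.1%. The 1343KO shares were 29.0% and 25.6%, then 79.9% and 76.7%, then 58.9% and 62.3%, so the lines overlapped at both later days and not at day 0. The WT day 0 shares rest on Myh7 at 0.0539 and 0.0278 FPKM. For that gene 1 fragment was worth about 0.0203 to 0.0334 FPKM, so these shares come from very few fragments. Myl2, the ventricular regulatory chain, was listed at 0 in both WT day 8 libraries and at 8.92 and 7.71 at day 16, while Myl7 was at 1.57 and 4.77 there. At that day in the 1343KO line Myl7 exceeded Myl2 2.19-fold and 2.92-fold. Tnni3, the adult inhibitory subunit, did not exceed 3.92 FPKM in any library, and was at most 1.02 in WT at days 8 and 16.

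At day 8 in WT the order of the members was Tnni1 (mean 49.0 ± 0.72 FPKM, SD, n = 2), Tnnc1 (19.7 ± 2.95) and Tnnt2 (12.8 ± 0.61), each apart from the next. Myl4, Actc1 and Myl7 followed at 9.33, 8.45 and 7.99 and overlapped one another. Myh7 (5.80), Myl3 (4.18) and Myh6 (1.47) came next, each without overlap with its neighbour above, and Ttn (0.477) overlapped Myh6. At day 16 in the 1343KO line Actc1 came first (14.6 ± 1.103), apart from Myl4 (10.8), Tnnt2 (10.4) and Myl7 (10.2), which overlapped one another. Tnni1 was at 8.77 ± 1.27 and Tnnc1 at 6.33 ± 1.497, with Myl3 (7.28 ± 4.29) spanning both. Myh7, Myh6 and Ttn closed the order at 4.65, 3.01 and 0.273.

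Other genes of the heart program gave the setting for these members. Of 23 further sarcomere and Z-disc genes 15 passed the filter, and at day 8, 5 of them were lower in the 1343KO line and 2 higher (median -0.55). At day 16, 2 were lower and 3 higher (-0.19). For this and the lists below, 19.6% of all genes were lower and 23.3% higher at day 8, and 24.1% and 28.5% at day 16. At day 0, 3.71% of all genes passed in either direction. Mybpc3, cardiac myosin-binding protein C, rose by 3.59 from day 0 to 8 in WT and by 0.84 in the 1343KO line on the log2 scale, and this difference passed (-2.75 ± 0.29, limma adjusted p = 0.000199). Mybpc3 was at 12.2 and 14.8 in WT at day 8 and 22.4 and 27.2 at day 16, against 1.11 and 1.17, then 0.871 and 1.43. The difference for Mybpc3 was -2.75 ± 0.21 at day 8 (limma adjusted p = 9.25e-06) and -3.59 ± 0.21 at day 16 (9.47e-07). Tnnt2 against Mybpc3 was 13.8 and 6.21 in the 1343KO line at day 16, and between 0.639 and 1.79 in the other 6 libraries of days 8 and 16. Tpm1, the tropomyosin that troponin sits on and that other cells also make, was at 207 to 268 FPKM in those 8 libraries, and its line differences did not pass at day 8 (-0.16) or day 16 (-0.17). Nebl, the Z-disc protein nebulette, was lower in the 1343KO line at day 8 (-2.30 ± 0.24, limma adjusted p = 6.29e-05).

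Of 20 genes of heart calcium handling, channels and peptides 12 passed the filter, with 4 lower and 1 higher at day 8 (median -0.25) and 4 lower and 2 higher at day 16 (-0.13). Slc8a1, the sodium-calcium exchanger, was lower in the 1343KO line at both days (-1.43 ± 0.30 and -1.26 ± 0.30, limma adjusted p of 0.0039 and 0.00583), the second of which ended with a pseudocount of 0.1 (0.0639). Atp2a2, the calcium pump SERCA2 that most cells make, was higher at day 16 (0.67 ± 0.08, limma adjusted p = 0.000135). The pump regulator Pln was listed at 0 in all libraries of days 0 and 8 and at 0.36 to 1.54 in the 4 of day 16.

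Of 15 heart transcription factors 12 passed the filter. At day 8, 11 of them were lower in the 1343KO line (median -2.01), and at day 16, 9 were lower and 1 higher (-1.18). Hand1, a factor of early heart and extraembryonic mesoderm, was at 154 and 162 FPKM in WT at day 8 against 16.9 and 15.6 (-3.21 ± 0.17, limma adjusted p = 1.11e-06). At day 16 Hand1 stood at 58.9 and 65.7 against 19.0 and 21.6 (-1.57 ± 0.17, 4.57e-05). Gata4, which endoderm also expresses, was lower on all 3 days (-2.64, -2.30 and -1.07). Mef2c, a partner of muscle regulators, was lower at day 8 (-1.97 ± 0.36, limma adjusted p = 0.00173). Nkx2-5 was lower at day 8 (-1.58 ± 0.33, 0.004) and stood at 0.65 ± 0.33 at day 16 (0.132). Srf, whose factor binds CArG boxes, did not pass at day 8 (0.05 ± 0.16, limma adjusted p = 0.838) and was higher in the 1343KO line at day 16 (0.76 ± 0.16, 0.00371). From day 8 to 16 in the 1343KO line only 0.804% of all genes passed with limma. In that interval 0 of 15 tested sarcomere and Z-disc genes and 0 of 12 calcium genes passed, which is near that share. At an unadjusted limma p under 0.05, 3 genes of each list were higher. Of the 12 tested heart transcription factors 1 rose in that interval, Hand2 (2.09 ± 0.21, limma adjusted p = 0.00325), named after its value was seen. At an unadjusted limma p under 0.05, 6 of these factors were higher. The 0.804% is for adjusted p, so it is no background for the counts at an unadjusted p, for which no share of all genes is given.

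**Figure D4:**
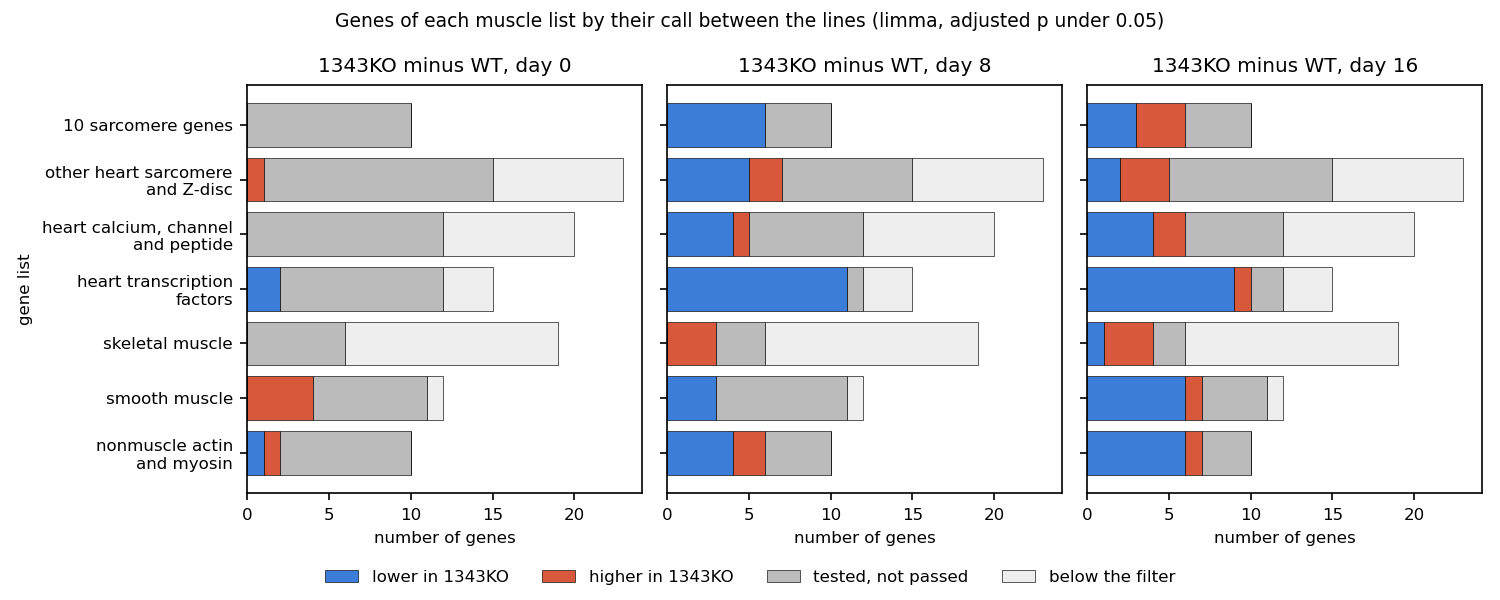
Number of genes of each list (horizontal axis) that were lower in the 1343KO line, higher, tested without passing, or under the filter, for each day (panels). At day 8 the bar of heart transcription factors is lower for 11 of its 12 tested genes, and that of the 10 sarcomere genes for 6.

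Markers of other muscle and cell types moved with the lines as well, and their part in the results above was not tested. Skeletal muscle markers had 6 of 19 genes past the filter, of which 3 were higher in the 1343KO line at day 8, and 3 higher and 1 lower at day 16. Their summed level, 8.80 to 24.5 FPKM in WT at days 8 and 16 and 88.2 to 119 in the 1343KO line, was carried by Mylpf, a fast light chain that was also at 89.1 to 556 in stem cells. Tnnt1, slow skeletal troponin T, was higher in the 1343KO line at day 8 (1.84 ± 0.38, limma adjusted p = 0.00355) and day 16 (2.02 ± 0.38, 0.00153). Of 11 smooth muscle markers tested, 4 were higher in the 1343KO line at day 0, 3 lower at day 8, and 6 lower and 1 higher at day 16. Their summed level was 325 and 349 FPKM in WT against 211 and 201 at day 8, and 407 and 420 against 174 and 193 at day 16. All 6 pluripotency markers were higher in the 1343KO line at both later days, with summed levels of 56.8 to 92.7 in WT and 1047 to 1193. Of 8 fibroblast markers 7 were lower in the 1343KO line and 1 higher at day 8, and 7 were lower at day 16, with summed levels there of 3829 and 3948 against 55.4 and 51.2. All 6 yolk sac endoderm markers were lower in the 1343KO line at both later days (medians -3.69 and -5.84), with summed levels of 1905 and 1956 FPKM in WT against 126 and 108 at day 8, and 10943 and 11002 against 82.9 and 74.2 at day 16. Of 6 endothelial markers 5 were lower and 1 higher at day 8, and 5 lower at day 16 (summed over both days to at least 77.9 in WT and at most 37.6 in the 1343KO line). Of 6 blood and macrophage markers 5 were lower at day 8, where they summed to 1051 and 1165 in WT against 16.1 and 9.39, and 3 at day 16 (78.1 and 82.4 against 25.04 and 33.4). From day 8 to 16 in the 1343KO line, the fibroblast markers Col3a1 (1.48) and Lum (1.05), the endothelial Cdh5 (1.13) and the embryonic globin Hba-x (2.31) rose, and the yolk sac markers Amn (-1.91) and Cubn (-1.81) fell, all named after their values were seen. The skeletal regulators Myod1 and Myog were listed at 0 in all 6 WT libraries.

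The genes outside these lists whose pattern was most like the mean profile of the 10 members were ranked by Pearson r over the 12 libraries, among 9543 genes of at least 5 FPKM on average. The libraries share days and lines, so r is a description. The first were Sort1, a sorting receptor (r = 0.981), Cdh2, the adhesion protein N-cadherin (0.969), Phka2, a subunit of phosphorylase kinase (0.959), and Arl5b, a small GTPase (0.957). Akr7a5, Ptpn13, Mkl2, Specc1l, Cd24a and Hmgb3 followed at 0.954 to 0.948. Cdh2 had group means of 1.45, 7.59 and 7.67 FPKM in WT and 1.65, 3.80 and 9.53 in the 1343KO line at days 0, 8 and 16. Among the members, likeness to the mean profile of the other 9 was highest for Actc1 (0.966), Myh7 (0.944) and Tnnt2 (0.930), lower for Myl3 (0.659) and Myh6 (0.446), and negative for Ttn (-0.561).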

How the data were processed

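The authors deposited FPKM per gene. Cufflinks 2.1.1 and GRCm38 (mm10) are named in the submitters' processing notes; the aligner, annotation and filters were not given in the sources used here. An exact 0 can be a failed estimate, since 17 of 6620 genes with a median from 10 FPKM up had one. Depth was estimated from whole steps of the lowest values (81.4% to 85.4% within 5%, transcripts of at least 1500 nt, assumed fragment of 200 nt), so it is approximate.

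Groups came from the titles. With limma 3.58.1 in R 4.3.3, log2(FPKM + 1) of 16289 genes was modelled by group over all 12 libraries (trend, 6 residual degrees of freedom, two-sided), for 12 contrasts, with Benjamini-Hochberg adjustment over all genes. An exact permutation test of 2 against 2 libraries cannot go below p = 0.333, so calls rest on the spread pooled over groups. Scripts were tested on simulated data. The members and lists were chosen with earlier results of these data known. Named genes were the members, the leading genes and fixed partners of each list, and the 10 most alike genes. Alternatives were the pseudocount, filter, scaling, replicate block, robust estimation, a minimum change, single days and each library left out. Figures used matplotlib 3.10.9 under Python 3.11.15. Other knockouts, reads and proteins were not analysed here.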

Additional observations from a re-analysis of the deposited data

Results flagged for a closer look

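Each of the 10 members was tested for a difference between the lines' changes from day 0 to 8, 8 to 16 and 0 to 16. In 13 cases the change over time of a member differed between the lines by a test of the difference itself (limma, Benjamini-Hochberg over all genes), the change in the 1343KO line minus that in WT. From day 0 to 8 this difference was -3.54 for Tnni1 (adjusted p = 0.00046), -2.23 for Tnnt2 (0.00192), -2.15 for Myl7 (0.0244), -1.91 for Actc1 (0.000794), -1.72 for Myh7 (0.0166) and -0.89 for Ttn (0.0499). Ttn passed the filter only through the 1343KO libraries of day 0, the baseline of this difference, and was not tested without either of them, so its value is given as a description (adjusted p = 0.0307 with no filter). From day 8 to 16 it was 3.23 for Myl7 (0.00627), 2.98 for Actc1 (0.000125), 2.76 for Tnni1 (0.00295), 1.85 for Myl4 (0.0435), 1.55 for Tnnt2 (0.0186) and 1.51 for Myh7 (0.0434). From day 0 to 16 it was 1.07 for Actc1 (0.00957). Of all genes, 12.7% passed as lower from day 0 to 8, 8.50% as higher from day 8 to 16 and 21.7% as higher from day 0 to 16. The cases of day 0 to 8 and of day 8 to 16 use the same day 8 libraries with opposite sign, so they are not independent.

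Leaving aside the test of a minimum change, the 3 Actc1 differences, that of Tnnt2 from day 0 to 8 and that of Myl7 from day 8 to 16 passed under every alternative that tested them. Myl7 was not tested at a mean of at least 5 FPKM. The 2 Tnni1 differences ended only with a pseudocount of 0.1 (adjusted p = 0.0701 and 0.054). That of Myl7 from day 0 to 8 ended without 1343KO day 8 replicate 2 (0.0789), 1343KO day 0 replicate 2 (0.0756), or any 1 of the WT libraries of days 0 and 8 (0.0549 to 0.0678), and with no filter (0.0642). That of Myh7 from day 0 to 8 ended without WT day 8 replicate 2 (0.0594) or 1343KO day 0 replicate 2 (0.0559). That of Tnnt2 from day 8 to 16 ended without WT day 8 replicate 1 (0.0501) or 2 (0.0613), WT day 16 replicate 1 (0.0588), 1343KO day 8 replicate 1 (0.0593) or 1343KO day 16 replicate 1 (0.0667), and with a pseudocount of 0.1 (0.0853). Those of Ttn, Myl4 from day 8 to 16 and Myh7 from day 8 to 16 ended under 12, 13 and 12 alternatives, with adjusted p up to 0.148, 0.135 and 0.13.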

How the results depend on the processing

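Of 60 calls of members over the 12 comparisons, 22 held under every alternative that tested them, and 37 when the test against a minimum log2 change of 1 is left aside. Of 2334 values recomputed for single members, 2155 kept their direction and their side of the threshold, 155 lost and 23 gained a call, and 1 reversed: the difference of Tnnc1 between the lines' changes from day 0 to 16 was 1.45 with a pseudocount of 0.1 (limma adjusted p = 0.0276) against -0.43. A further 18 values that never passed changed sign. For Tnnc1, both 1343KO libraries of day 0 were listed at 0 FPKM, where the log2 value is that of the pseudocount alone. The cause of the other changes was not tested.

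With a pseudocount of 0.1, 2 members passed between the lines at day 0, 3 at day 16, 1 from day 8 to 16 in the 1343KO line, and 2 in each of the tests between the lines' changes from day 8 to 16 and from day 0 to 16. Against a minimum log2 change of 1, 3 passed between the lines at day 8 and 0 at day 16. It left 5 in WT from day 0 to 16, and 1, 1 and 4 in the 1343KO line from day 0 to 8, 8 to 16 and 0 to 16. Between the lines' changes it left 1, 1 and 0 for days 0 to 8, 8 to 16 and 0 to 16. At a mean of at least 5 FPKM only 5 members were tested, and 5 passed in WT from day 0 to 16, 5 and 5 in the 1343KO line from day 0 to 8 and 0 to 16, and 3 between the changes from day 0 to 8. These members reached that mean through their levels at days 8 and 16, so the filter favoured rises from day 0. The share of all genes under each alternative is not given here, so the counts in this section describe the members alone.

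Leaving out 1 library in turn gave 0 to 1 calls between the lines at day 0, 3 to 6 at day 16 (3 without 1343KO day 16 replicate 2), 0 to 1 in WT from day 8 to 16, 4 to 7 in the 1343KO line from day 0 to 8 (4 without 1343KO day 0 replicate 2; without either library of that group Ttn fails the filter, which leaves 9 members tested) and 1 to 4 from day 8 to 16 (1 without 1343KO day 8 or day 16 replicate 1). Between the changes it gave 3 to 5 from day 0 to 8 (3 of 9 tested without 1343KO day 0 replicate 2), 3 to 6 from day 8 to 16 (3 without either WT day 8 library, WT day 16 replicate 1 or 1343KO day 16 replicate 1) and 1 to 2 from day 0 to 16.

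Same-numbered libraries did not deviate together (correlations of -0.0358 to 0.0360 over genes, which are not independent). These values give no sign of pairing by replicate number. With 2 libraries per group they cannot exclude it, and the labels do not tell. With a replicate block the counts were 0, 6 and 6 between the lines at days 0, 8 and 16, and 5, 4 and 1 between the changes. It ended the calls of Myh7 from day 0 to 8 in the 1343KO line (0.0648) and between the changes of Ttn from day 0 to 8 (0.0588) and of Myl4 (0.0604) and Myh7 (0.0608) from day 8 to 16.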
